A study of Mus musculus with 6 samples.

Results

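The mitosis and G2-M genes are 34 mouse genes listed by function: they encode the cyclins, kinases, motors, centromere proteins and degradation factors that carry a cell from G2 through division. Each gene was represented by a probe set that is named for that gene alone, and by the brightest one over the 6 arrays where there were several. On this rule 33 of the 34 genes could be followed among 19938 genes and 35556 probe sets; Ccnb1 was not analysed here. No measured difference between the groups entered the choice of probe set.

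The samples came from pre-B cells of 5-week-old mice of strain 129SvEv x C57BL/6J, transformed by the oncogene BCR-ABL1, a constantly active kinase that drives a form of acute B-cell leukaemia. All cells carried the floxed genotype Sox4fl/fl. The Cre-ERT2 samples (n = 3) had been transduced with a Cre recombinase that 4OHT, an oestrogen receptor ligand, switches on, and the ERT2 samples (n = 3) with the receptor part without Cre. Per the series' design text, RNA was taken 24 h after 4OHT, and each sample had its own Affymetrix array. The promoter that drives the constructs, the number of clones and the number of mice are not given in the labels, nor is it said that the 3 samples of a group were separate cultures, so the spread between them may be technical. None of the samples carries Cre-ERT2 with unfloxed Sox4, so effects of losing Sox4 and of active Cre cannot be told apart.

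Mitosis is driven by cyclin-dependent kinase 1 bound to cyclins A and B, and it ends when the anaphase-promoting complex marks cyclin B and securin for destruction. The transcripts of these genes are low in G1 and high in G2 and M, because the DREAM repressor gives way to activators that contain B-Myb and FoxM1. Many of their promoters share a CHR element (cell cycle genes homology region) and CCAAT boxes bound by NF-Y. In a dividing leukaemia culture their summed level is therefore widely read as a mark of proliferation.

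The sequences below are the promoters of the 3 brightest members with a CHR match, among the members for which a promoter was found. Letters that match either motif are in capitals, and whether a match works as the element was not tested. The CHR was searched as the letters TTTGAA or, for the opposite strand, as TTCAAA. The CCAAT box was searched as CCAAT or, for the opposite strand, as ATTGG. Each sequence is the 250 bases before the annotated start, read 5′ to 3′ on the gene's own strand, from RefSeq on GRCm38.p6. The windows are chr9:70421555-70421804 for Ccnb2, chr7:135716380-135716629 for Mki67 and chr11:99024190-99024439 for Top2a, all on the minus strand.
Ccnb2: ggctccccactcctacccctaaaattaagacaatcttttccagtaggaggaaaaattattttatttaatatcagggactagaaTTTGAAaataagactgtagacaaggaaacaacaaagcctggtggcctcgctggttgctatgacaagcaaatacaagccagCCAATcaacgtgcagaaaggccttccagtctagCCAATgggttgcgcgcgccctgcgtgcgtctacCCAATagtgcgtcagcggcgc
Mki67: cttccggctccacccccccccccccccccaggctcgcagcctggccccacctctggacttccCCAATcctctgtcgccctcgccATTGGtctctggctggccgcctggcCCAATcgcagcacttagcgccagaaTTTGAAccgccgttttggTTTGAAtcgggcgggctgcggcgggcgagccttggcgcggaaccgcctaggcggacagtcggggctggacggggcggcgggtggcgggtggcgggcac
Top2a: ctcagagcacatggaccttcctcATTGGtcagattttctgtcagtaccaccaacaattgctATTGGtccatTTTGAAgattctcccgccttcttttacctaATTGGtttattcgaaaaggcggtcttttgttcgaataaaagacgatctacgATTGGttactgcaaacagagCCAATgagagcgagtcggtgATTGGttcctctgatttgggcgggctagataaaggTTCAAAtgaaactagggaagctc
The Ccnb2 window holds 3 CCAAT boxes, whose first bases lie 87, 54 and 21 bases before the start. Its only CHR match lies 167 bases before the start, farther out than all 3 boxes. The Mki67 window holds a pair of CHR matches, 116 and 98 bases before the start, and the Top2a window likewise, 179 and 23 bases before the start.

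Promoters were found for 26 of the 33 measured members, as 28 windows. Ect2 and Prc1 each have a pair of overlapping windows, so a match that such a pair shares is counted in both. The background was all 32851 promoter windows of 27025 genes, not restricted to genes measured on the arrays. A CHR match was present in 11 of 28 windows (39.3%), against 16% of all windows. A CCAAT box was present in 22 of 28 (78.6%), against 33.8% of all windows. Both stood together in 10 of 28 windows (35.7%), against 5.55% of all windows. The SOX core was searched as the letters ACAAAG or, for the opposite strand, as CTTTGT. It was found in 4 of 28 windows (14.3%), against 16.5% of all windows. Each motif was searched separately, so that matches of different motifs may share a base, and the matches describe the windows only.

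Sox4, the floxed gene, was lower in every Cre-ERT2 sample than in every ERT2 sample. Its intensities were 599.5, 540.8 and 499.1 in Cre-ERT2 samples, against 1459, 1372 and 1237 in ERT2 samples. The difference was -1.31 on the log2 scale (SE 0.0912; limma adjusted p = 0.000434), and the Cre-ERT2 mean was 40.3% of the ERT2 mean. Whether its probes lie inside the floxed part is not stated in the labels, and probes outside it would not check the deletion. B-lineage markers were bright in both groups. The summed intensity of 6 B-lineage markers ran from 60840 to 62030 in Cre-ERT2 samples and from 62580 to 62980 in ERT2 samples, and 0 of the 6 passed the test. The groups of that sum did not overlap. Pax5, a factor that maintains B-cell identity, just missed the threshold, at 5336, 5517 and 5306 in Cre-ERT2 samples, against 6495, 6113 and 6190 in ERT2 samples (difference -0.22, interval -0.34 to -0.10; limma adjusted p = 0.0552), and its part in the results below was not tested. Summed T-cell markers (5 genes) reached at most 944 in Cre-ERT2 samples and 968 in ERT2 samples, NK-cell markers (4 genes) 410 in either group, erythroid markers (2 genes) 480 and 454, and stromal markers (5 genes) 1737 and 1717, with 0 called in each list. Of 6 myeloid markers 1 rose, Lyz2 (mean 932 in Cre-ERT2 and 351 in ERT2 samples), and 1 fell, Itgam (141 and 198). The sum of the 6 ran from 1568 to 1741 in Cre-ERT2 samples and from 1114 to 1177 in ERT2 samples. Lyz2 carried that higher sum, and the part of the myeloid markers in the results below was not tested.

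None of the 33 mitosis and G2-M genes passed the test for a difference between Cre-ERT2 and ERT2 samples, and each had a narrow interval on these arrays. In limma's fit over all 35556 probe sets, 0 members rose and 0 fell at an adjusted p under 0.05, and 0 passed an unadjusted p under 0.05. That unadjusted count depended on the processing, with 4 members lower after cyclic loess normalization, for example. Over all 19938 genes 8.1% were called, 4.38% higher and 3.72% lower, and 20.1% passed the unadjusted threshold. Among the 5885 genes whose brightness lies within the members' own range, 9.91% were called and 49 differed by more than 2-fold. That range is wider than where most members lie, and calls at the brightness of the brightest members were not counted separately. The members' differences ran from -0.11 (Racgap1) to 0.11 (Birc5) on the log2 scale, with a median of -0.026, beside a median of 0.021 over all genes. Of the 33 members 23 had negative and 10 positive differences, beside 8116 negative and 11822 positive over all genes. The smallest limma adjusted p among the members was 0.316, for Tpx2. In RNA from whole cultures the share of cells in G2 and M and the level per cell cannot be told apart.

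**Figure D1:**
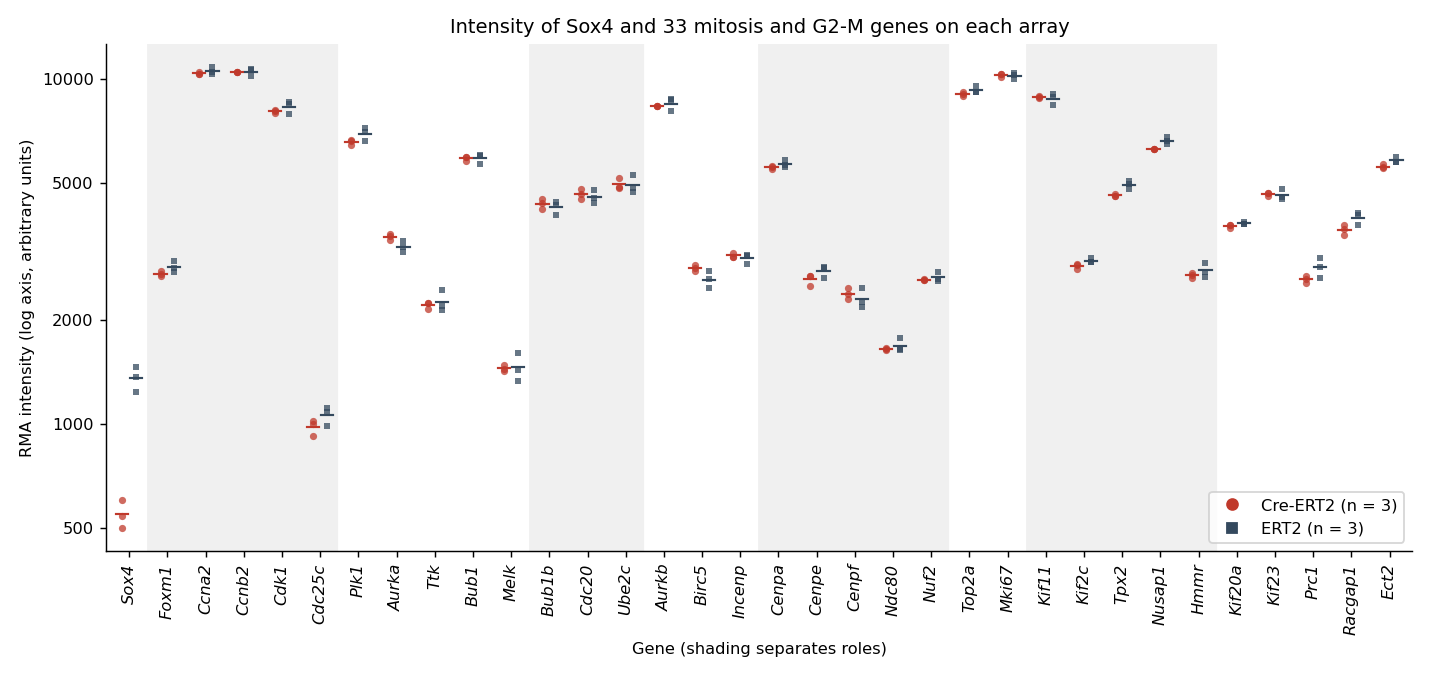
RMA intensity (log axis, arbitrary units) of Sox4 and the 33 members on each array, with red circles for the 3 Cre-ERT2 samples to the left of blue-grey squares for the 3 ERT2 samples; short lines are group means and shading separates the roles. The Sox4 groups are apart, at 499.1 to 599.5 in Cre-ERT2 and 1237 to 1459 in ERT2 samples. The members' groups lie close together, though for some members they do not overlap. Heights of different genes are not comparable.

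The groups of a gene count as apart when all 3 samples of one lie above all 3 of the other. That was so for 7 of 33 members: 1 higher in Cre-ERT2 samples (Aurka) and 6 lower (Top2a, Kif2c, Tpx2, Nusap1, Kif20a and Ect2). Over all genes the groups were apart in 28.3%, with 17.5% higher and 10.8% lower. The 7 genes had differences between -0.11 and 0.093.

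How small a change these arrays exclude was read from the 95% interval of each difference, as limma's moderated standard error gives it. If the 3 samples of a group were not separate cultures, the intervals cover the spread between arrays and not that between cultures. The farther end of a member's interval lay between 0.11 and 0.27 on the log2 scale, with a median of 0.16, which are changes of 1.08-fold, 1.21-fold and 1.12-fold. For 30 of 33 members the whole interval fitted within 0.25 (1.19-fold) of no change in either direction, and for all 33 within 0.5 (1.41-fold). Over all genes 55.6% of intervals fitted within 0.25 and 91.9% within 0.5, and over the genes in the members' brightness range 61.4% and 92.9%. The 3 members beyond 0.25 were Cdc25c, Prc1 and Birc5. At 95% confidence an interval is expected to miss the true value now and then; with 99.9% intervals, a choice made after seeing the data, 0 of 33 fitted within 0.25 and all 33 within 0.5, the farthest end lying at 0.493.

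A second reading of the same precision is the difference at which a member would have been called. At the unadjusted p of 0.00302 that was the largest to pass the adjusted threshold, it lay between 0.20 (Kif20a) and 0.34 (Melk), with a median of 0.23. The standard errors ran from 0.0430 to 0.0740 for the members, with a median of 0.0496. The median was 0.0643 over all genes and 0.0556 over the genes in the members' brightness range. The probe sets are bright: the members lie between the 69.7th and the 99.2nd percentile of all genes, with the median at 93.5. Brightness depends on the probes as well as on the transcript and does not rank the genes.

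**Figure D2:**
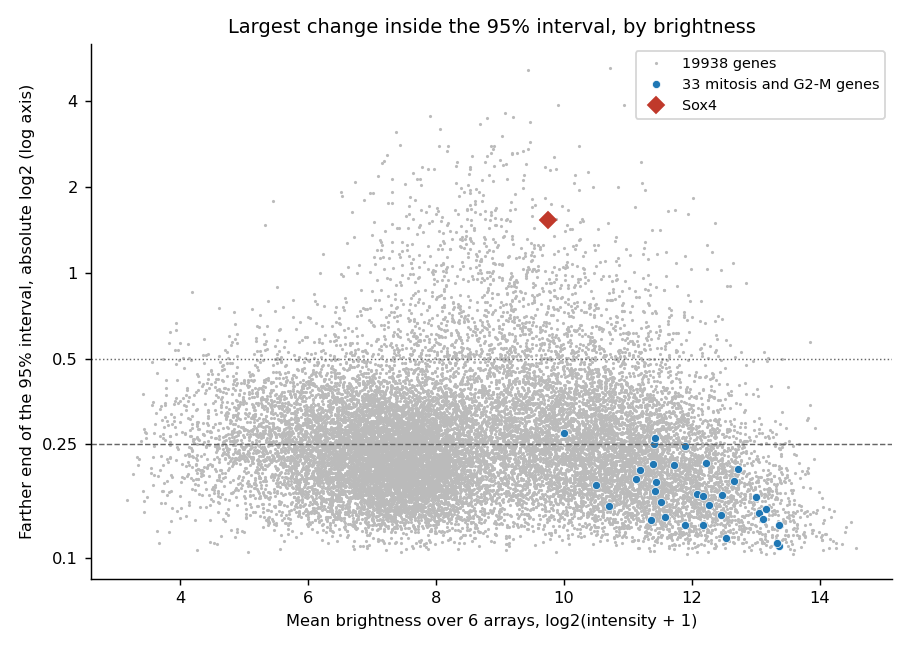
Farther end of the 95% interval of the Cre-ERT2 minus ERT2 difference (absolute log2, log axis) against mean brightness over the 6 arrays, for 19938 genes in grey, the 33 members in blue and Sox4 as a red diamond. Dashed and dotted lines mark 0.25 and 0.5; 30 members lie under the dashed line and 33 under the dotted one.

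In the cyclin-CDK engine and its regulator no gene passed the test. Foxm1, the forkhead activator of G2-M transcription, read 2769, 2717 and 2687 in Cre-ERT2 samples, against 2967, 2753 and 2837 in ERT2 samples. The groups overlapped, and the difference of -0.066 had an interval from -0.185 to 0.054. Ccna2, the cyclin of S phase and G2, read 10377, 10496 and 10369 in Cre-ERT2 samples and 10861, 10391 and 10500 in ERT2 samples. Ccnb2, a B-type cyclin, averaged 10511 ± 28.1 in Cre-ERT2 samples and 10532 ± 250 in ERT2 samples (SD, n = 3 each), which is a difference of -0.0026. Its interval, from -7.35% to 7.54%, had the smallest farther end of the members. Cdk1, the kinase these cyclins switch on, averaged 8086 ± 85.2 in Cre-ERT2 samples and 8324 ± 358 in ERT2 samples (SD, n = 3 each), with an interval from -10.7% to 5.83%. Cdc25c, a phosphatase that activates Cdk1, had the dimmest probe set and the interval reaching farthest from zero. It read 923, 999 and 1018 in Cre-ERT2 samples, against 1080, 1111 and 986 in ERT2 samples. The difference was -0.11, and the interval ran from -17.3% to 3.57%. All 5 genes of this role had negative differences (median -0.041), and 0 passed the test.

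Among the 5 mitotic kinases 0 passed the test, and Plk1 and Aurka had differences of opposite sign. Plk1, the polo-like kinase of mitotic entry and spindle poles, read 6654, 6641 and 6446 in Cre-ERT2 samples, against 7019, 7231 and 6643 in ERT2 samples, which is a difference of -0.081 (interval -0.21 to 0.043; limma adjusted p = 0.536). Aurka, the kinase of the centrosome and spindle poles, read 3552, 3500 and 3416 in Cre-ERT2 samples, against 3270, 3385 and 3160 in ERT2 samples. Its groups were apart, with a difference of 0.093 and an interval from -0.025 to 0.21 (limma adjusted p = 0.429). The other kinases sat closer to zero. Ttk, the checkpoint kinase also called Mps1, differed by -0.032, Bub1, a kinase of the kinetochore, by -0.0021 and Melk, the maternal embryonic leucine zipper kinase, by -0.0028. Melk had the largest standard error of the members, 0.0740, and its interval reached from -11.8% to 12.9%.

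Of 3 genes that hold back or trigger anaphase 0 passed the test, and all had overlapping groups. Bub1b, which encodes the checkpoint protein BubR1, averaged 4354 ± 142 in Cre-ERT2 samples and 4258 ± 196 in ERT2 samples (SD, n = 3 each). Cdc20, the activator of the anaphase-promoting complex, read 4810, 4650 and 4490 in Cre-ERT2 samples, against 4760, 4511 and 4374 in ERT2 samples, and its groups overlapped. Ube2c, the ubiquitin-conjugating enzyme of that complex, differed by 0.0036, with an interval from -9.60% to 11.2%. The chromosomal passenger genes gave differences of -0.022 for Aurkb, the kinase of the complex, 0.024 for Incenp, its scaffold, and 0.11 for Birc5, which encodes survivin. Birc5 read 2886, 2836 and 2772 in Cre-ERT2 samples, against 2626, 2773 and 2471 in ERT2 samples. The lowest Cre-ERT2 value and the highest ERT2 value were nearly equal, and the interval ran from -1.91% to 18.9% (limma adjusted p = 0.420).

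Of 5 centromere and kinetochore genes 0 passed the test, and their differences spanned -0.081 to 0.051. Cenpa, the histone H3 variant that marks centromeres, read 5485, 5600 and 5570 in Cre-ERT2 samples, against 5650, 5823 and 5575 in ERT2 samples. Cenpe, a kinesin that moves chromosomes to the spindle equator, had the most negative difference of this role, -0.081, and Cenpf, a large kinetochore protein, the most positive, 0.051. Ndc80 and Nuf2 encode the pair of coiled-coil proteins that grip spindle microtubules. Ndc80 averaged 1651 ± 9.19 in Cre-ERT2 samples and 1688 ± 73.3 in ERT2 samples (SD, n = 3 each). Nuf2 averaged 2620 ± 12.5 in Cre-ERT2 samples and 2662 ± 87.1 in ERT2 samples (SD, n = 3 each). The differences of the pair were -0.031 and -0.023.

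The classical proliferation marks Mki67 and Top2a had narrow intervals about zero. Mki67, which encodes the Ki-67 antigen that coats mitotic chromosomes, read 10140, 10397 and 10355 in Cre-ERT2 samples, against 10054, 10426 and 10293 in ERT2 samples. The difference was 0.0056, and the interval ran from -6.77% to 8.11%. Top2a, the topoisomerase that untangles sister chromatids, read 8938, 9066 and 9185 in Cre-ERT2 samples, against 9207, 9539 and 9218 in ERT2 samples. All Cre-ERT2 values lay below all ERT2 values, but the difference was only -0.040 (interval -9.75% to 4.77%; limma adjusted p = 0.762). A second Top2a probe set read 126.8, 197.5 and 142.5 in Cre-ERT2 samples and 113.6, 143.5 and 131.8 in ERT2 samples. It gave a difference of 0.24 (SE 0.173, limma adjusted p = 0.593), of the other sign. This probe set was dim, below the median of every array (272.8 to 278.8), so its sign says little about Top2a.

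Of 5 spindle genes 4 had negative differences and 0 were called. Tpx2, which activates Aurka and nucleates spindle microtubules, came nearest to a change of all members. It read 4581, 4594 and 4632 in Cre-ERT2 samples, against 4809, 5076 and 4969 in ERT2 samples. The groups were apart, with a difference of -0.11 (SE 0.0457), an interval from -13.8% to 0.317%, an unadjusted p = 0.0576 and a limma adjusted p = 0.316. Nusap1, a microtubule-binding protein of the central spindle, read 6298, 6275 and 6272 in Cre-ERT2 samples, against 6498, 6609 and 6798 in ERT2 samples. These groups were apart too, with a difference of -0.079 and a limma adjusted p = 0.467. Kif11, the plus-end motor Eg5 that pushes the poles apart, differed by 0.019, Kif2c, a kinesin that takes microtubules apart, by -0.050, and Hmmr, a spindle-pole protein, by -0.046.

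Cytokinesis genes had the most negative median of the roles, -0.058, again with 0 of 5 called. Racgap1 and Kif23 form the centralspindlin complex of the midzone. Racgap1 read 3775, 3690 and 3531 in Cre-ERT2 samples, against 4091, 4042 and 3770 in ERT2 samples. The groups touched, since 1 Cre-ERT2 sample lay just above the lowest ERT2 sample, and the difference was -0.11 (interval -15.8% to 1.36%; limma adjusted p = 0.383). Kif23 read 4576, 4694 and 4684 in Cre-ERT2 samples, against 4545, 4802 and 4489 in ERT2 samples, a difference of 0.013. Prc1, the bundler of midzone microtubules, differed by -0.11 (interval -16.6% to 2.65%). Kif20a, a motor of the midzone, differed by -0.026 and Ect2, the exchange factor that switches on RhoA for furrowing, by -0.058.

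**Figure D3:**
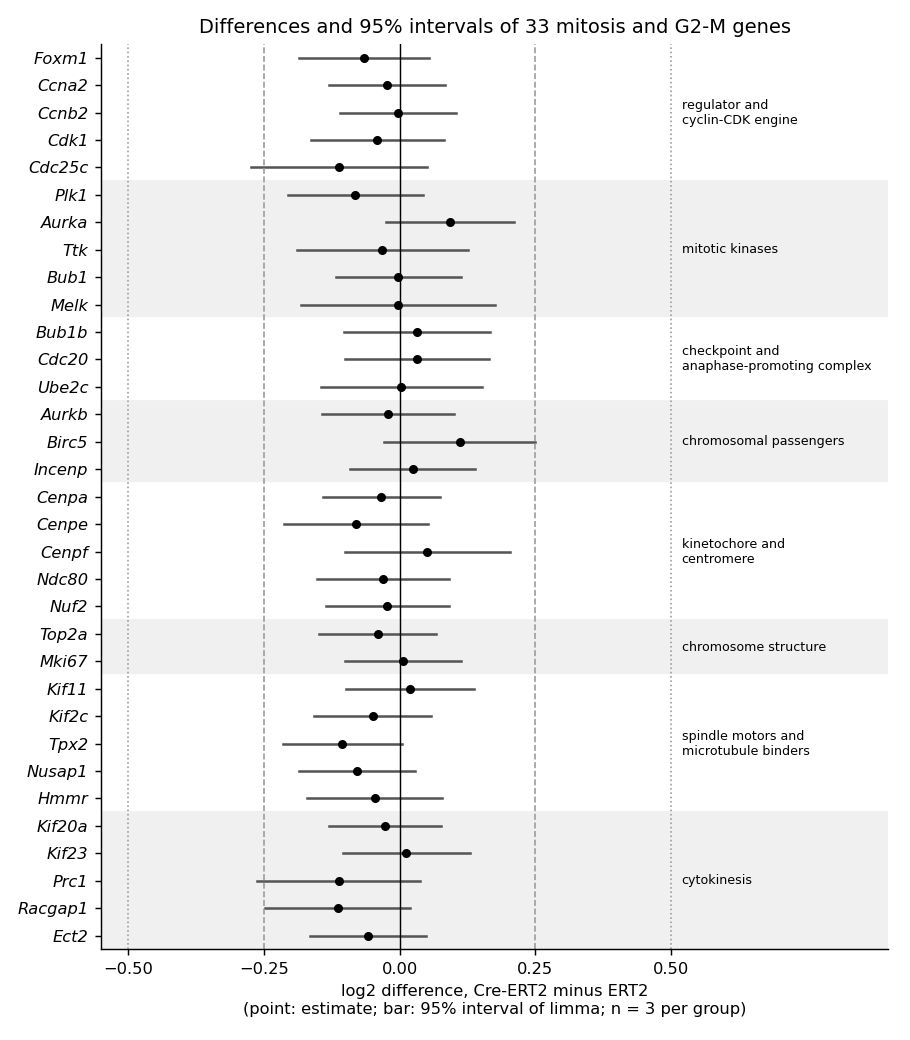
Difference of each member on the log2 scale, Cre-ERT2 minus ERT2 (point), with its 95% interval (bar), grouped by role; n = 3 per group. All 33 bars cross zero, and only those of Cdc25c, Prc1 and Birc5 pass the dashed lines at 0.25 in either direction.

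The replicates showed how small the members' spread was. The SD of a member over the 3 arrays of a group had a median of 0.0221 in Cre-ERT2 samples and 0.0545 in ERT2 samples on the log2 scale, and it was larger in ERT2 samples for 31 of 33 members (93.9%). Over all genes it was larger in ERT2 samples for 64.7%, and over genes in the members' brightness range for 79.6%. ERT2 replicate 2 stood above the rest: it gave the highest of the 6 values for 17 of 33 members (51.5%), against 22% of all genes. Ttk, Melk and Prc1 were among the members that peaked there. In Cre-ERT2 replicate 2, too, 25 of 33 members lay above the mean of their own group, as 25 did in ERT2 replicate 2. Cre-ERT2 replicate 2 gave the highest of the 6 values for 2 members. ERT2 replicate 3 gave the lowest of the 6 values for 11 members, and this share was not counted over all genes. The median difference of the members was -0.016 without ERT2 replicate 2 and -0.042 without ERT2 replicate 3, and 0 members were called in either case. After a further quantile normalization or cyclic loess it was -0.052 or -0.053.

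**Figure D4:**
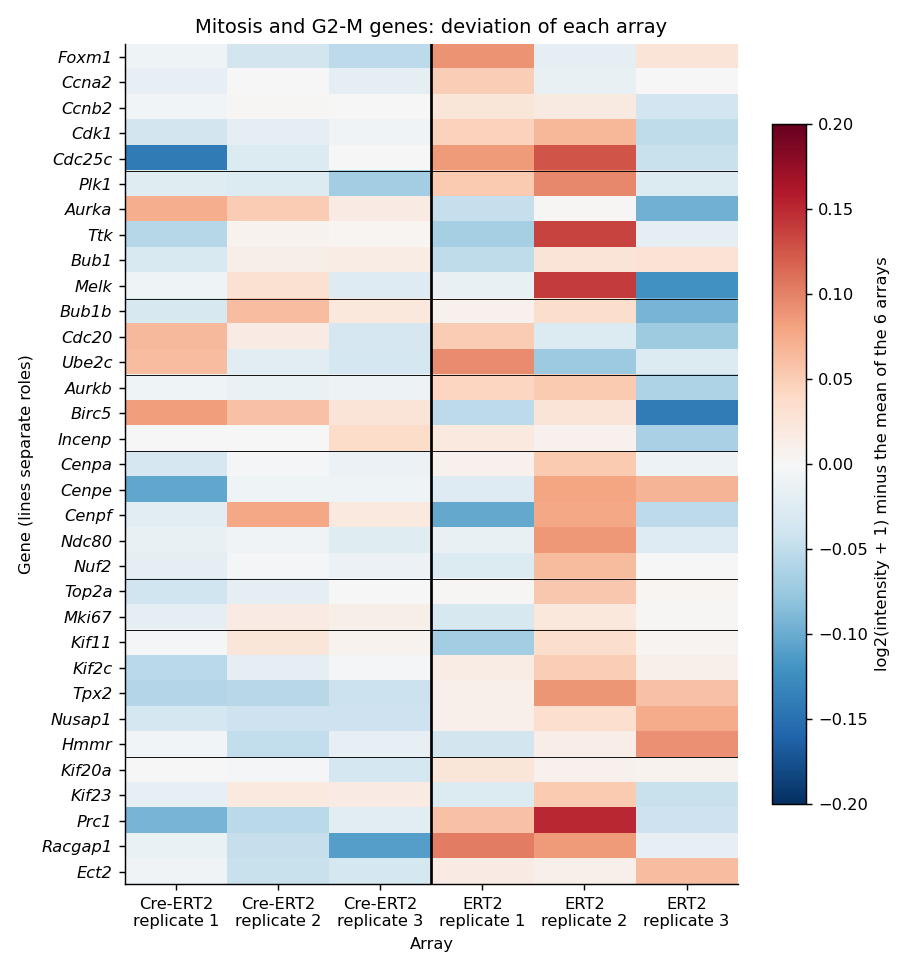
Log2 deviation of each member on each array from its mean over the 6 arrays (red above, blue below; scale from -0.2 to 0.2), with Cre-ERT2 arrays on the left and ERT2 arrays on the right. ERT2 replicate 2 is mostly red, as the highest of 6 for 17 of 33 members, and the Cre-ERT2 arrays are paler.

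Beyond the members, 115 further genes of the same processes were listed by role, of which 112 could be followed. In these, 3 rose and 0 fell (limma adjusted p under 0.05), and 12 rose and 7 fell at an unadjusted p under 0.05. Their median difference was 0.013, and 84 of 112 intervals fitted within 0.25 of zero. The sign of that median is not stable: it was -0.0023 without ERT2 replicate 1, -0.0059 without ERT2 replicate 3, -0.010 after a further quantile normalization and -0.013 after cyclic loess, against 0.044 without ERT2 replicate 2. Over all genes 4.38% were called higher and 3.72% lower, so the 3 rises do not stand above that background.

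The strongest of them was Pttg1, which encodes securin, the inhibitor of separase that the anaphase-promoting complex destroys at anaphase. It read 2509, 2563 and 2574 in Cre-ERT2 samples, against 1859, 1780 and 1570 in ERT2 samples, and the groups lay far apart. The difference was 0.56 (SE 0.0717; interval 30.6% to 65.8%; limma adjusted p = 0.00603). Its interval does not meet that of any of the 33 members. Leaving out each array in turn kept the Pttg1 call, with differences from 0.49 to 0.61 and limma adjusted p from 0.00838 to 0.0363.

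Cenpu, a protein of the inner kinetochore, rose by 0.30 (SE 0.0534; limma adjusted p = 0.0245), with 749, 795 and 798 in Cre-ERT2 samples, against 619, 661 and 624 in ERT2 samples. Its call was lost without replicate 2 (limma adjusted p = 0.109) or 3 (0.118) of the Cre-ERT2 samples, and without replicate 1 (0.101) or 3 (0.0801) of the ERT2 samples. Rbl2, which encodes p130, a pocket protein of the DREAM repressor, rose by 0.25 (SE 0.0482; limma adjusted p = 0.0326), with 1258, 1263 and 1273 in Cre-ERT2 samples and 1105, 1059 and 1029 in ERT2 samples. Its call was lost without any single array (limma adjusted p from 0.0648 to 0.146). Cdc25b, a phosphatase that starts Cdk1 activation, read 2066, 2175 and 2022 in Cre-ERT2 samples, against 2833, 2745 and 2399 in ERT2 samples. The groups were apart, and the difference of -0.35 (SE 0.0754) just missed the threshold (limma adjusted p = 0.0506). It passed without ERT2 replicate 3 (limma adjusted p = 0.0206) and, among others, with cyclic loess normalization (0.0186) and estimated array weights (0.00894). With any other array left out it did not pass (limma adjusted p from 0.112 to 0.187), nor with the replicate block (0.0571).

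By role, 1 of 13 regulators of the programme rose (Rbl2; median of the role 0.073), 1 of 25 kinetochore and centromere genes (Cenpu; 0.0080) and 1 of 11 condensation and separation genes (Pttg1; 0.014). In the other roles 0 rose and 0 fell: 14 genes of mitotic entry (median 0.014), 12 of the checkpoint and centromere protection (0.013), 22 of spindle and cytokinesis (-0.019) and 15 of the anaphase-promoting complex (0.032).

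**Figure D5:**
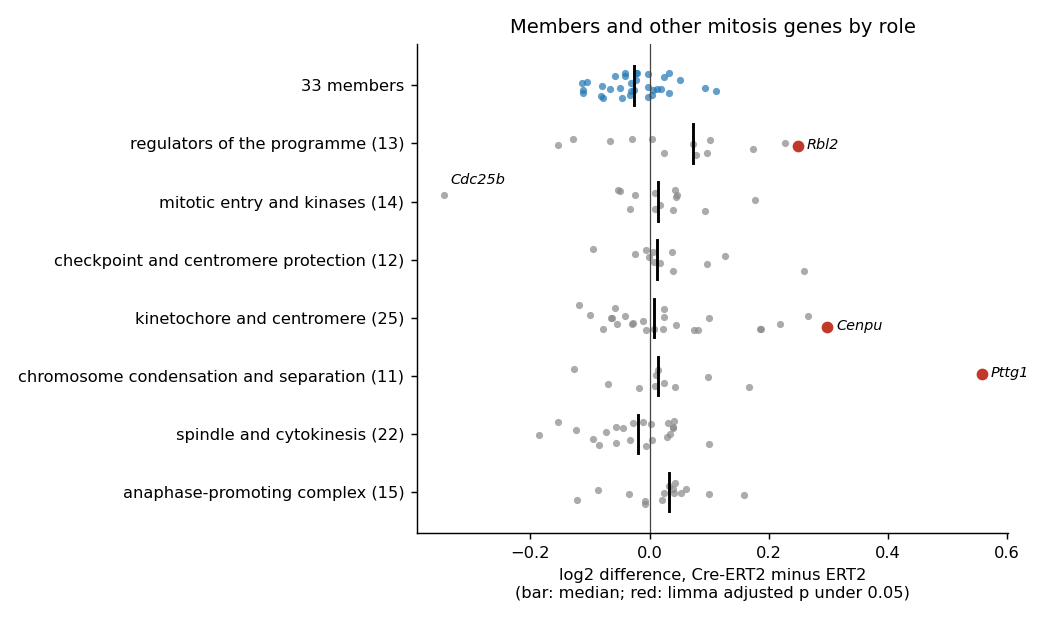
Log2 difference of the 33 members (top row) and of 112 other mitosis genes by role, Cre-ERT2 minus ERT2; each point is a gene, the black bar is the median and red marks a limma adjusted p under 0.05. The members run from -0.114 to 0.111, whereas Pttg1 lies at 0.56, Cenpu at 0.30, Rbl2 at 0.25 and Cdc25b, not called, at -0.35.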

How the data were processed

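The authors made the deposited intensities with RMA, per the submitters' processing notes; its settings, version and build are not given in the sources read. RMA as usually run includes quantile normalization across arrays, under which a shift common to all genes is lost, so differences are relative to the array. The deposited intensities are linear (6.27 to 26714), so log2(intensity + 1) was taken. Array medians ran from 272.8 to 278.8, and 0 pairs of arrays held identical values. The number of arrays limits precision.

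All 35556 probe sets were fitted in limma 3.58.1 (R 4.3.3; lmFit, eBayes, no covariates, 6 samples), with Benjamini-Hochberg adjustment and a threshold of 0.05. Two-sided 95% intervals are per gene and unadjusted. The fit and its intervals were run on simulated data, with genes drawn independently from normal distributions and the same spread in both groups. That run cannot check the intervals where the groups differ in spread or the members move together on an array, as seen here. The probe table names 1 gene for 21789 probe sets. The members and lists were chosen with earlier results of these data known. Genes named were Sox4, all members, and further listed genes that passed, or the 4 with the smallest p. Promoters shown are of the 3 brightest members with a CHR match, among those for which a promoter was found.

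Same-numbered Cre-ERT2 and ERT2 samples deviated from their group means with correlations of 0.205, 0.344 and -0.0491. Between differently numbered samples the correlations ran from -0.43 to 0.325, so the 0.344 of the replicates numbered 2 was the highest. The numbers were not taken as pairs in the main fit, and a replicate block was run as an alternative. Alternatives covered variance modelling, filters, normalizations, array weights, a replicate block, pseudocounts, the choice of probe set and each array left out.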

Additional observations from a re-analysis of the deposited data

How the results depend on the processing

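Under all alternatives listed with the methods, 0 members were called in either direction, and all 33 intervals stayed within 0.5. At a limma unadjusted p under 0.05, 1 member was higher and 3 lower with an intensity trend. At that threshold 4 were lower after quantile or cyclic loess normalization, 3 without ERT2 replicate 3 and 2 with array weights. With median centring, brighter probe sets or a pseudocount of 16, 1 was lower, and without ERT2 replicate 2, 1 was higher. The members' median difference lay between -0.053 and -0.016, and 25 to 30 intervals fitted within 0.25 with an array left out and 30 to 32 otherwise. With 99.9% intervals, added after seeing the data, 0 fitted within 0.25. The numbers of further genes called higher and lower moved to 5 and 4 with an intensity trend, 5 and 2 among brighter probe sets, 9 and 3 with array weights, 7 and 1 among named probe sets and likewise when the probe sets of a gene were averaged, and 4 and 1 with a pseudocount of 16; 1 was lower after quantile and 3 after cyclic loess normalization. With an array left out, 1 to 3 were higher and 0 to 1 lower. With the replicate block 0 members were called, and 2 further genes rose as Rbl2 lost its call (limma adjusted p = 0.082).

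Small member differences changed sign without a call. With median centring Mki67 gave -0.0056 and Ube2c -0.0077. After a further quantile normalization Kif11 gave -0.0048, Kif23 -0.014, Mki67 -0.018 and Ube2c -0.019. After cyclic loess Incenp gave -0.0038, Kif23 -0.010, Mki67 -0.0072 and Ube2c -0.019. With array weights Bub1 gave 0.036, Cdc20 -0.026, Melk 0.0047, Nuf2 0.0014, Ttk 0.030 and Ube2c -0.070. Averaging both of its probe sets, of which the second was dim, Top2a gave 0.10. Leaving out each array in turn changed the sign of 20 of 198 member values, within ranges of -0.028 to 0.013 for Bub1, -0.0053 to 0.059 for Bub1b, -0.022 to 0.0085 for Ccnb2, -0.0021 to 0.041 for Incenp, -0.012 to 0.041 for Kif11, -0.0065 to 0.042 for Kif23, -0.064 to 0.067 for Melk, -0.0087 to 0.017 for Mki67, -0.052 to 0.0049 for Ndc80, -0.042 to 0.0033 for Nuf2, -0.073 to 0.028 for Ttk and -0.032 to 0.052 for Ube2c. The cause was not tested.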
